A study of Mus musculus with 30 samples.

Results

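Expression of 35 imprinted genes, grouped by the chromosomal locus they share, was followed in 5 tissues of mice with 1 or both copies of Ctcf. The genes were taken by symbol from a list of known imprinted genes, and all 35 matched 1 row each of the 48709 genes in every count table. Of these, 28 fall into 9 loci: H19-Igf2 (2 genes), Dlk1-Meg3 (4), Kcnq1ot1 (5), Peg3 (3), Snrpn (4), Peg10 (3), Igf2r (2), Peg13 (3) and Commd1 (2). The other 7, Grb10, Gnas, Nnat, Mest, Plagl1, Impact and Nap1l5, are described singly.

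RNA-seq libraries came from brain, kidney, liver, muscle (the quadriceps femoris) and spleen of adult C57BL/6 mice. In each tissue 3 control libraries, called WT, were compared with 3 libraries of Ctcf haploinsufficiency (Ctcf+/-), called heterozygous, which gives 30 libraries from 3 mice of each genotype by the series' design. CTCF is the architectural zinc-finger factor found at many insulators and at the ends of chromatin loops. The sources used here do not give the sex or exact age of the mice, how the allele was inactivated, or which libraries of different tissues came from 1 mouse.

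Imprinted genes are transcribed mainly from the copy inherited from 1 parent, because a control region at the locus carries a methylation mark set in the egg or the sperm. At H19-Igf2, CTCF binds the unmethylated maternal control region and insulates Igf2 from enhancers it shares with H19, so that H19 is made from the maternal and Igf2 from the paternal copy. At several other loci a long non-coding RNA, such as Kcnq1ot1 or Airn, is transcribed from 1 copy while the neighbouring coding genes are silenced on that copy. Many imprinted genes act in growth and in the brain, and many fall in level after birth. The counts were not split by allele, so each value is the sum of the maternal and paternal copies. Parental labels below are textbook background.

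Promoter windows are shown for the genes on which the results below turn: Grb10, with the smallest p in heterozygous muscle, Meg3 and Rian, with the largest differences in spleen, and Peg3, which is transcribed away from Usp29. They are RefSeq sequences on GRCm38.p6, from 250 bases before to 50 bases after an annotated start, 5′ to 3′ on the gene's strand, with each CG dinucleotide in capitals.
Grb10, chr11:12037371-12037670, minus strand: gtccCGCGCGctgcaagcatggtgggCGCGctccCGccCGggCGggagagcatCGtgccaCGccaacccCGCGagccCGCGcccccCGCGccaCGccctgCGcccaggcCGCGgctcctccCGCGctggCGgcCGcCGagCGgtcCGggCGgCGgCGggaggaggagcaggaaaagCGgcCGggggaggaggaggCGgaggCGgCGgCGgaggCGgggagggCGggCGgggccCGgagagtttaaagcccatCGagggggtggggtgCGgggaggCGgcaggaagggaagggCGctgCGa
Grb10, chr11:12027922-12028221, minus strand: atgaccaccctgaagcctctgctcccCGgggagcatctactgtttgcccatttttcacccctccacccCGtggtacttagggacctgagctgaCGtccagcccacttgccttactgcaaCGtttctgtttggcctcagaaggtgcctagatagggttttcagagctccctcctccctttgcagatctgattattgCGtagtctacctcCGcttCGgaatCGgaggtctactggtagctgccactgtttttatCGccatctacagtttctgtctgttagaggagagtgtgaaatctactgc
Meg3, chr12:109540746-109541045, plus strand: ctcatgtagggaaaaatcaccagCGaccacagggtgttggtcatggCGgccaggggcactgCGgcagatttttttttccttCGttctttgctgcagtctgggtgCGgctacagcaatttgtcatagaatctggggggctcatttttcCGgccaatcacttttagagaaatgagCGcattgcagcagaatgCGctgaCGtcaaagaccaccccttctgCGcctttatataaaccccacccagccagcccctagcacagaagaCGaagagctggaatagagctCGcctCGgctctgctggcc
Rian, chr12:109603695-109603994, plus strand: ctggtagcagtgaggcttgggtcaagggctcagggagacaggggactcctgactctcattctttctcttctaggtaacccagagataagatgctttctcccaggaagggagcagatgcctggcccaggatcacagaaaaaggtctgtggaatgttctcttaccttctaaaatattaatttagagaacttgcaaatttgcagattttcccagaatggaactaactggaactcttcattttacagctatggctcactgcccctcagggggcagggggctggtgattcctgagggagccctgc
Peg3, chr7:6730370-6730669, minus strand: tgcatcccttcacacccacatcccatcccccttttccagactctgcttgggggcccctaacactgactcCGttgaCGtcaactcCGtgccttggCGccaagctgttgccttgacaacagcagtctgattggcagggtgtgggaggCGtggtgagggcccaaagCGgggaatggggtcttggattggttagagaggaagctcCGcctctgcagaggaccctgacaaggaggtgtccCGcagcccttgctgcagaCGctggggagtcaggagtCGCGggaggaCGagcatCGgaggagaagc

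The windows differ most in CG content. The upstream Grb10 window holds 45 CG dinucleotides, the most of any window of these genes, and the downstream one holds 9. The Meg3 window shown and the Peg3 window hold 13 each, and the Rian window holds 0. A second Meg3 window, further downstream and not printed, holds 1. In all, 26 of the 35 genes have a window in the RefSeq table, 41 windows in total, with a median of 13 CG dinucleotides against 7 over all 32851 windows of the table. A Usp29 window lies on the opposite strand over most of the Peg3 window. Peg10, Trappc9, Cdkn1c, H19, Peg13, Kcnq1, Kcnk9 and Sgce have no window there, and Impact was left out with its chromosome. The 7-letter core AGGGGGC, shared by many CTCF sites, was searched on both strands. It lies in 8 of the 41 windows, 19.5%, against 10.6% of all windows of this length. Those 8 windows belong to Gnas (3, of which 2 overlap), Igf2 (2), Magel2, Zrsr1 and Rian (1 each). Among the windows printed here only that of Rian holds it, and a match is a description of the letters alone.

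Several of these transcripts also carry microRNAs. On the same strand and within the span of 7 of the 35 genes lie 43 mature microRNAs of RefSeq (GRCm38.p6), 26 of them in Mirg, and they have 42 distinct seeds. Examples are shown for 5 of the hosts, among them the only 2 mature microRNAs that share a seed, both in Mirg. Capitals mark the seed, bases 2 to 8.
miR-675-5p (H19): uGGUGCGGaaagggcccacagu
miR-483-5p (Igf2): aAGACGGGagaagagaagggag
miR-335-5p (Mest): uCAAGAGCaauaacgaaaaaugu
miR-370-3p (Rian): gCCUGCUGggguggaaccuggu
miR-453 (Mirg): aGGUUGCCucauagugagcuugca
miR-496a-5p (Mirg): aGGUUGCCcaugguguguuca
The gene counts measure the longer host transcripts and say nothing of the level of the mature microRNAs.

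Libraries held 49.8 M to 131.6 M counts, so 3 counts, the most that a count of 0 allows, correspond to 0.0228 to 0.0602 CPM. That floor covers counting error only. Ctcf itself was at 61.4% to 67.2% of its WT mean in heterozygous libraries of the 5 tissues, with no overlap between genotypes in any of them. The 35 genes took 0.463% to 0.527% of all counts in brain, 0.128% to 0.222% in muscle, 0.0941% to 0.104% in kidney, 0.0268% to 0.0418% in spleen and 0.0229% to 0.0302% in liver. Exons of 17 of the 35 overlap another gene, and fragments assigned to both were left out, which can understate these genes. The overlap covered 34.1% of the exon bases of Snrpn, 30.7% of Cdkn1c, 27.3% of Ube3a, 23.1% of Mest, 22.0% of Gnas and 14.8% of Usp29. Each tissue's defining markers were high in its own libraries, with small amounts of other tissues' markers in some of them, which are given beside the results they accompany.

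In WT mice the imprinted genes were mainly genes of brain and muscle. Levels are in FPKM, scaled CPM per kilobase of exon, as mean ± SD of 3 libraries. The highest mean lay in brain for 20 of the 35 genes, in muscle for 11, in kidney for 3 (Kcnq1, Phlda2 and Slc22a18), in spleen for 1 and in liver for 0. Over the 22933 genes tested the shares were 25.4% for brain, 17.3% for muscle, 13.2% for kidney, 28.7% for spleen and 15.3% for liver. In bulk tissue, a lower level from fewer expressing cells and from less RNA per cell cannot be told apart. In spleen, 26 of the 35 were called lower than the mean of the other 4 tissues, against 29.5% of all genes, and 0 were called higher, against 29.0%. A call needed an edgeR adjusted p under 0.05 and a log2 difference beyond 1 in that direction. In brain 23 were called higher (32.0% of all genes) and 5 lower (22.7%). In muscle 19 were higher (22.8%) and 2, Slc22a18 and Nap1l5, were lower (25.9%). Kidney had 10 higher (23.8%) and 5 lower (11.7%). Liver had 2 higher, Kcnq1 and Slc22a18 (19.4%), and 14 lower (20.4%).

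How tissues are scaled matters for these counts. TMM scaling moved the median gene, relative to total counts, by a log2 of -0.51 in brain, -0.48 in spleen, -0.34 in kidney, 0.69 in muscle and 0.72 in liver. With total counts the calls in muscle were 16 higher (2858 of all 22933 genes) and 8 lower (10348). Those in liver were 1 higher (2931) and 22 lower (8670), and those in spleen 1 higher (9168) and 22 lower (5229). Under that scale Zim1, Ube3a, Trappc9 and Grb10 were highest in brain in place of muscle, and Igf2r and Commd1 in kidney. The other 29 genes kept their highest tissue.

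**Figure D1:**
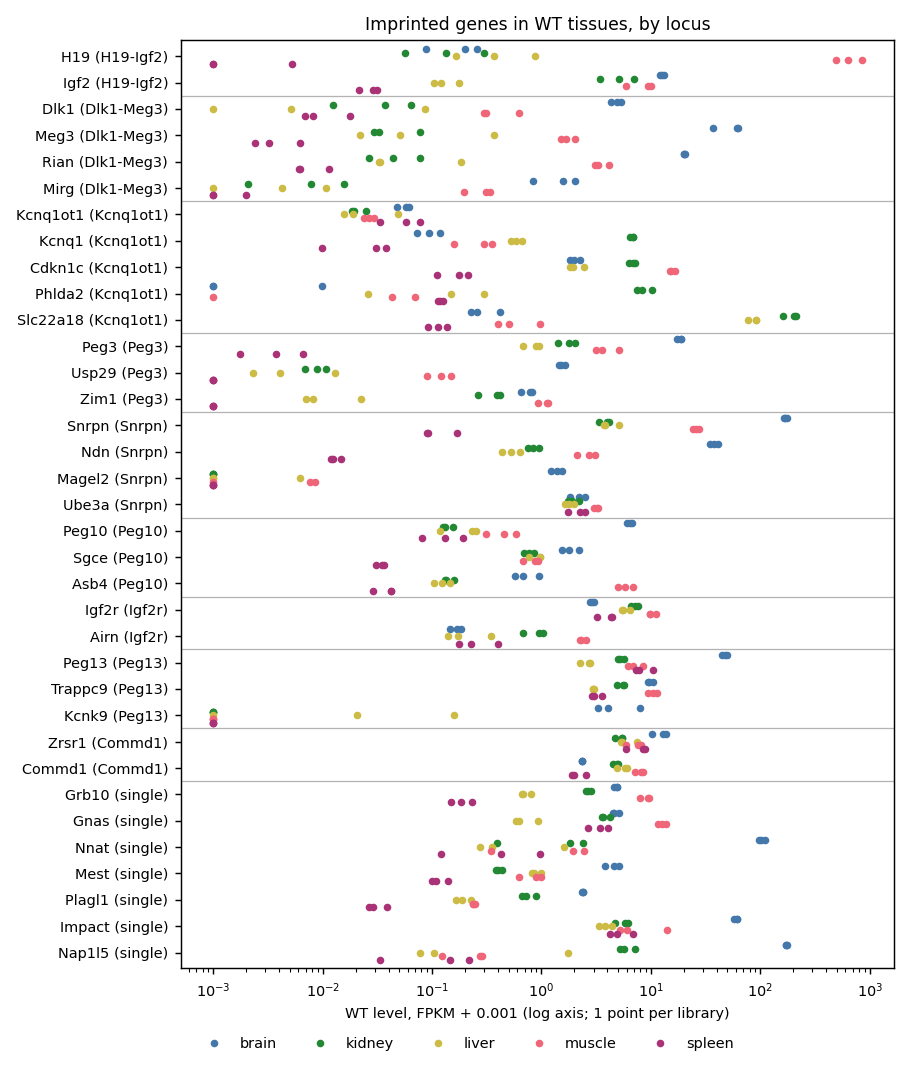
WT level of each of the 35 imprinted genes (rows, ordered by locus) in FPKM plus 0.001 on a log axis, with 1 point per library and 1 colour per tissue. Brain points are the highest in 20 rows, H19 stands at 496 to 851 FPKM in muscle, and Slc22a18 is highest in kidney and liver.

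H19, a maternally expressed non-coding RNA, stood far higher in muscle than in any other tissue. It was at 660.5 ± 179 FPKM in muscle (n = 3) and at 0.469 ± 0.365 FPKM in liver, the next tissue, a ratio of means of 1408. Brain and kidney held 0.18 FPKM and 0.162 FPKM, which overlapped each other and liver, and the spleen libraries held 0 to 1 count. Igf2, the paternally expressed fetal growth factor of the same locus, was spread differently, at 12.6 ± 0.598 FPKM in brain, 8.41 ± 2.21 FPKM in muscle and 5.19 ± 1.82 FPKM in kidney, the last 2 overlapping. Liver and spleen held 0.132 FPKM and 0.0264 FPKM. Per length, the ratio of H19 to Igf2 was 79.2 in muscle, 3.23 in liver, 0.0307 in kidney and 0.0144 in brain.

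The Dlk1-Meg3 domain joins Dlk1, a paternally expressed membrane protein of the Notch ligand family, to the maternally expressed non-coding RNAs Meg3, Rian (host of C/D small nucleolar RNAs) and Mirg (host of microRNAs). All 4 were highest in brain and next in muscle, with no overlap between these tissues. In brain Meg3 stood at 53.5 ± 14.6 FPKM, Rian at 20.3 ± 0.102 FPKM, Dlk1 at 4.84 ± 0.482 FPKM and Mirg at 1.48 ± 0.604 FPKM. Muscle held 3.5 ± 0.57 FPKM of Rian and 1.73 ± 0.263 FPKM of Meg3, so the order of these 2 was reversed. The ratio of Rian to Meg3 was 0.403 in brain and 2.02 in muscle. Kidney, liver and spleen means of the 4 genes lay at or below 0.146 FPKM.

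The Kcnq1ot1 domain held the 3 genes that were highest in kidney. Slc22a18, a transporter-like membrane protein, stood at 191 ± 25.4 FPKM in kidney and 86.9 ± 8.06 FPKM in liver, and at or below 0.625 FPKM elsewhere. Kcnq1, a potassium channel subunit, stood at 6.74 ± 0.203 FPKM in kidney and 0.594 FPKM in liver, and Phlda2, a small pleckstrin-homology protein known from placenta, at 8.69 ± 1.39 FPKM and 0.157 FPKM. Cdkn1c, which encodes the cell cycle inhibitor p57, was highest in muscle, at 15.6 ± 0.879 FPKM, before kidney at 6.81 ± 0.447 FPKM. Kcnq1ot1, the paternal non-coding RNA of the domain, was at 0.0553 FPKM in spleen and 0.0549 FPKM in brain, which overlapped, and at 0.02 FPKM in kidney. Its annotated exon of 84395 bases lies within the span of Kcnq1 on the other strand, and part of it overlaps exons of Kcnq1. Counting ignored strand, so unspliced Kcnq1 RNA there cannot be told apart from Kcnq1ot1.

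At the Peg3 locus, the zinc-finger gene Peg3 stood at 18.4 ± 0.861 FPKM in brain, 3.98 FPKM in muscle, 1.74 FPKM in kidney, 0.834 FPKM in liver and 0.00305 FPKM in spleen, with no overlap between neighbours in that order. Usp29, the deubiquitinase-like gene that starts beside it on the other strand, stood at 1.54 ± 0.0989 FPKM in brain and 0.00788 FPKM in kidney. The Usp29 to Peg3 ratio was therefore 0.0836 in brain, 0.03 in muscle and 0.00467 in kidney, although the windows around their starts overlap. Zim1, a maternally expressed zinc-finger gene, stood at 1.06 ± 0.114 FPKM in muscle and 0.753 ± 0.0905 FPKM in brain. WT spleen libraries held 0 counts of Usp29 and Zim1.

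In the Snrpn domain, the region deleted or silenced in Prader-Willi and Angelman syndromes in people, Snrpn encodes a spliceosomal protein and stood at 169 ± 5.17 FPKM in brain and 26 ± 1.57 FPKM in muscle. Ndn, encoding the MAGE protein necdin, stood at 37.7 ± 3.36 FPKM in brain and 2.64 FPKM in muscle. Magel2, a related MAGE gene, was at 1.38 ± 0.165 FPKM in brain, and every WT library of the other 4 tissues held 3 counts or fewer. Ube3a, a ubiquitin ligase imprinted in neurons, varied least of the 4 in mean, between 1.81 FPKM in liver and 3.17 FPKM in muscle.

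Of the Peg10 locus, Peg10, derived from a retrotransposon, stood at 6.41 ± 0.378 FPKM in brain and at most 0.45 FPKM elsewhere, while its divergent neighbour Sgce (epsilon-sarcoglycan) stood at 1.84 ± 0.328 FPKM in brain and 0.901 FPKM in liver. The ratio of Sgce to Peg10 was 0.286 in brain and 5.75 in kidney. Asb4, maternally expressed, was a muscle gene at 5.89 ± 0.981 FPKM. Igf2r, the receptor that clears IGF2, ranged from 2.9 FPKM in brain to 10.3 FPKM in muscle, and its antisense RNA Airn from 0.165 FPKM to 2.37 FPKM in the same tissues. Peg13, a non-coding RNA within an intron of Trappc9, stood at 47 ± 2.32 FPKM in brain against 9.86 FPKM for Trappc9. Kcnk9, a potassium channel, was at 5.11 ± 2.52 FPKM in brain and at 0 counts in WT kidney, muscle and spleen. Zrsr1 and Commd1, in which Zrsr1 lies inside an intron of Commd1, were detected in all 5 tissues. Zrsr1 ranged from 5.23 FPKM in kidney to 12.3 FPKM in brain, and Commd1 from 2.14 FPKM in spleen to 7.95 FPKM in muscle.

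Among the single genes, Nap1l5 (173 ± 2.42 FPKM), Nnat (103 ± 7.24 FPKM) and Impact (60.6 ± 2.19 FPKM) were brain genes, and Mest and Plagl1 were highest there at 4.5 FPKM and 2.38 FPKM. Nap1l5 is a nucleosome assembly protein relative, Nnat encodes a small membrane proteolipid and Impact a regulator of translation control. Grb10, an adaptor that dampens insulin and IGF signalling, stood at 8.99 ± 0.926 FPKM in muscle and 4.83 ± 0.185 FPKM in brain. Gnas, the stimulatory G-protein subunit, stood at 12.6 ± 1.1 FPKM in muscle and 4.74 ± 0.31 FPKM in brain. One WT liver library, replicate 3, held brain markers at 48.4 CPM summed, against 17.7 and 17.3 CPM in the other 2, with none of the 4 markers at 0. The same library held 1.76 FPKM of Nap1l5 against 0.102 and 0.0759, and 0.366 FPKM of Meg3 against 0.0209 and 0.0495. The part of those brain transcripts in the liver levels was not tested.

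Heterozygous and WT libraries were then compared within each tissue, with levels in CPM scaled by TMM within the tissue. None of the imprinted genes was called in any tissue by edgeR's quasi-likelihood test at an adjusted p under 0.05, out of 34 tested in brain, 32 in kidney, 28 in liver, 26 in spleen and 32 in muscle. Calls over all genes were also few, at 0.242% in spleen, 0.0249% in muscle, 0.0211% in kidney, 0.0193% in liver and 0.0157% in brain. DESeq2 called 0 of them in brain (29 of all 32298 genes), kidney (157 of 29668) and liver (70 of 27139). It called 1 in muscle, Grb10 (182 of 26245), and 2 in spleen, Rian and Meg3 (192 of 29442). The genes left out of a test held few counts in that tissue, and those tested had passed a filter on low counts. Ctcf itself, lower without overlap in every tissue, was called by edgeR in brain alone (adjusted p 0.0259). Elsewhere its edgeR adjusted p was 0.107 in kidney, 0.25 in muscle, 0.543 in liver and 0.914 in spleen. A gene that was not called may therefore still differ. Below, each share of all genes tested stands in parentheses beside the count of imprinted genes.

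In muscle, 10 of 32 had an unadjusted p under 0.05 (6.45% of all genes), all 10 with higher means in heterozygous libraries (3.67%) and 0 lower (2.78%). The genotypes did not overlap for 10 (12.2%), 9 above WT (5.91%) and 1, Kcnq1ot1, below (6.28%). The fold change was above 1 for 22 of the 32 (48.4%), with a median log2 fold change of 0.23 against -0.01 over all genes. The 10 were Grb10, Plagl1, Nnat and Mest of the single genes, Mirg, Rian and Dlk1 of 1 domain, and Cdkn1c, Zim1 and Sgce.

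The other tissues had fewer. In brain 1 of 34 had an unadjusted p under 0.05 (2.96%), 0 higher (1.39%) and 1, Nap1l5, lower (1.57%), and only it was without overlap (7.83%), 0 above (3.73%) and 1 below (4.1%). Kidney had 3 of 32 (6.44%), Kcnq1ot1 higher (4.0%) and Usp29 and Peg13 lower (2.44%), and 2 without overlap (11.4%), 0 above (6.15%) and 2 below (5.28%). In liver 5 of 28 passed that p (4.56%), Peg3, Sgce and Airn higher (2.48%) and Igf2 and Peg13 lower (2.08%), and 3 were without overlap (8.99%), Sgce above (4.68%) and Ndn and Igf2 below (4.31%). Spleen had 3 of 26 (3.52%), Rian, Meg3 and Slc22a18, all higher (2.55%) and 0 lower (0.972%), and 4 without overlap (6.64%), those 3 above (4.35%) and Igf2 below (2.29%). Brain and kidney libraries were taken to be paired by replicate number. With that number as a block, the count was 4 of 34 in brain (6.69%) and 4 of 32 in kidney (8.60%). The p of single genes in these tissues come from the edgeR fit without the block. The fold change was above 1 for 15 of 34 in brain (48.2%), 21 of 32 in kidney (50.1%), 14 of 28 in liver (47.6%) and 17 of 26 in spleen (48.9%).

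The median size of the log2 fold change, whatever its direction, was 0.41 in muscle against 0.13 over all genes, 0.25 in liver against 0.13, 0.21 in spleen against 0.13, 0.13 in kidney against 0.11 and 0.08 in brain against 0.07.

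**Figure D2:**
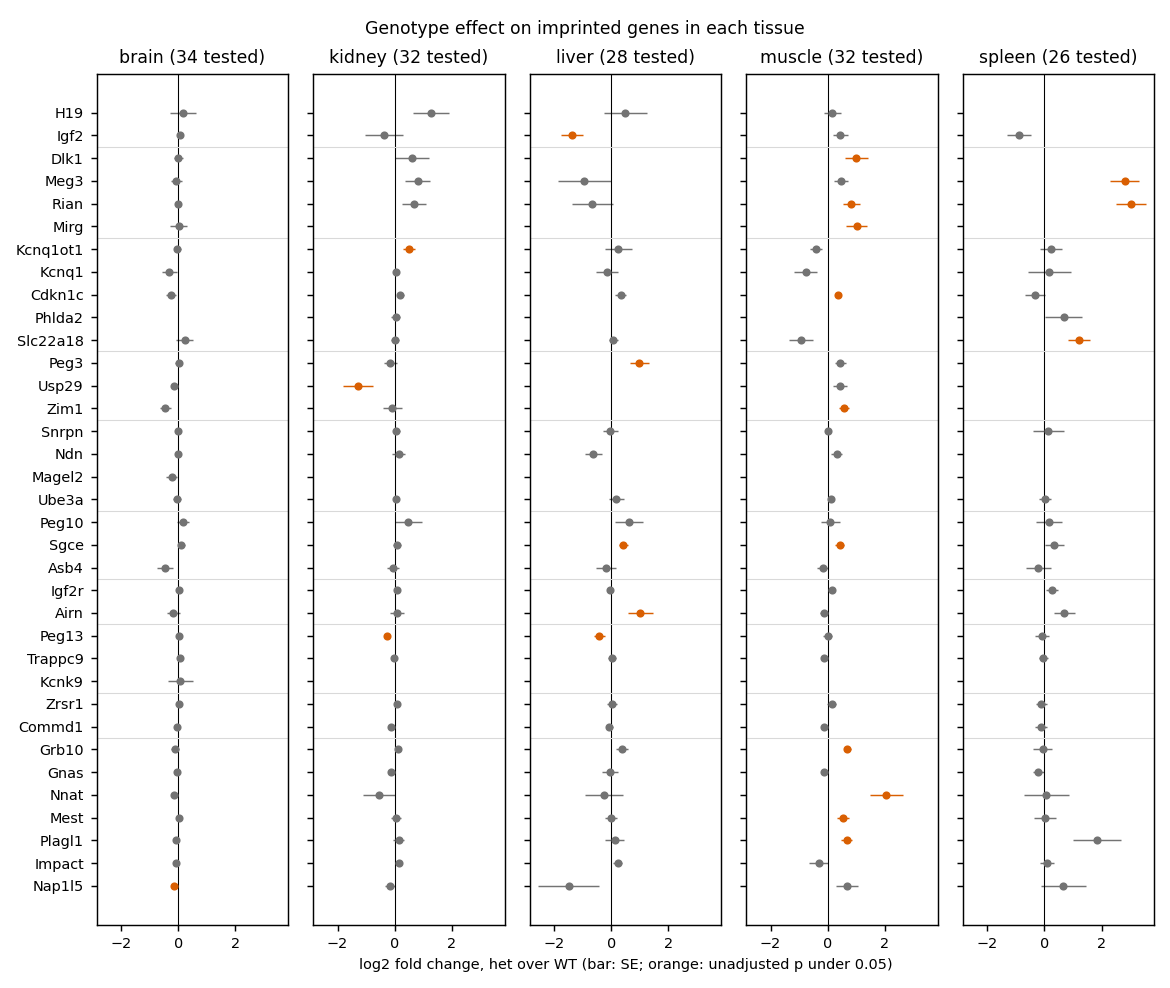
Log2 fold change, heterozygous over WT, of each tested imprinted gene (rows, by locus) in 5 tissues, with the SE of the fitted coefficient as bars and unadjusted p under 0.05 in orange. Brain values lie close to 0, the 10 orange points in muscle are all above 0, and the 2 largest values are Meg3 and Rian in spleen.

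H19 and Igf2, the pair whose control region binds CTCF, were measured in brain, kidney, liver and muscle. In muscle H19 was at 727, 1267 and 949.8 CPM in WT and 752, 905 and 1616 CPM in heterozygous libraries, overlapping, with a log2 fold change of 0.15 (SE 0.30). Igf2 there was at 20.8, 35.7 and 33.9 CPM in WT and 36.9, 31.8 and 53.9 CPM in heterozygous libraries, also overlapping, with 0.44 (SE 0.25). Neither gene passed the test (edgeR adjusted p 0.979 for H19 and 0.863 for Igf2). In brain Igf2 was at 97.7, 106 and 103 CPM in WT and 116, 93.8 and 111 CPM in heterozygous libraries. H19 in brain was low, at 0.668, 0.289 and 0.868 CPM in WT and 1.07, 0.527 and 0.454 CPM in heterozygous libraries, and both genes overlapped between genotypes.

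In kidney H19 was at 0.168, 0.406 and 0.896 CPM in WT and 0.707, 0.683 and 2.16 CPM in heterozygous libraries. The highest value of each genotype came from replicate 3, and those 2 libraries also held skeletal muscle markers at 144 and 182 CPM summed, against 0.0836 to 0.259 CPM in the other 4. The part of muscle RNA in the kidney H19 values was not tested. Igf2 in kidney was at 37.1, 25 and 51.4 CPM in WT and 48, 4.49 and 34.4 CPM in heterozygous libraries, so heterozygous replicate 2 stood apart below the others. That library and heterozygous replicate 3 held adrenal markers at 31.8 and 59.1 CPM against 4.47 to 4.82 CPM in the rest, with Cyp11b2, the zona glomerulosa enzyme, at 0 in all WT libraries. The part of adrenal RNA was not tested. In liver Igf2 was at 0.428, 0.365 and 0.688 CPM in WT and 0.174, 0.148 and 0.249 CPM in heterozygous libraries, with every heterozygous library below every WT library. Its log2 fold change was -1.38 (SE 0.39), unadjusted p 0.00745 and edgeR adjusted p 0.708, at 11 to 42 counts per library. WT replicate 3, the highest of these liver libraries, had raised brain markers, and their part in its Igf2 value was not tested. H19 in liver was at 0.546, 0.243 and 1.43 CPM in WT and 0.847, 0.296 and 1.99 CPM in heterozygous libraries and overlapped. In spleen Igf2 was at 0.233, 0.168 and 0.241 CPM in WT and 0.08, 0.0964 and 0.167 CPM in heterozygous libraries, again without overlap, and H19 was at 0 to 1 count.

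Within a library, the log2 ratio of H19 to Igf2 counts does not depend on scaling. Its mean difference, heterozygous minus WT, was 2.26 in kidney (exact permutation p = 0.3, 3 against 3), 1.82 in liver (exact p = 0.2), -0.33 in muscle (exact p = 0.3) and 0.15 in brain (exact p = 0.8). The 2 genotypes overlapped in each. These were 4 of 19 ratios tested, each by a 2-sided exact permutation test, and 3 libraries against 3 cannot give a p below 0.1. The Benjamini-Hochberg adjusted p over the 19 was 0.475 or above for all of them.

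**Figure D3:**
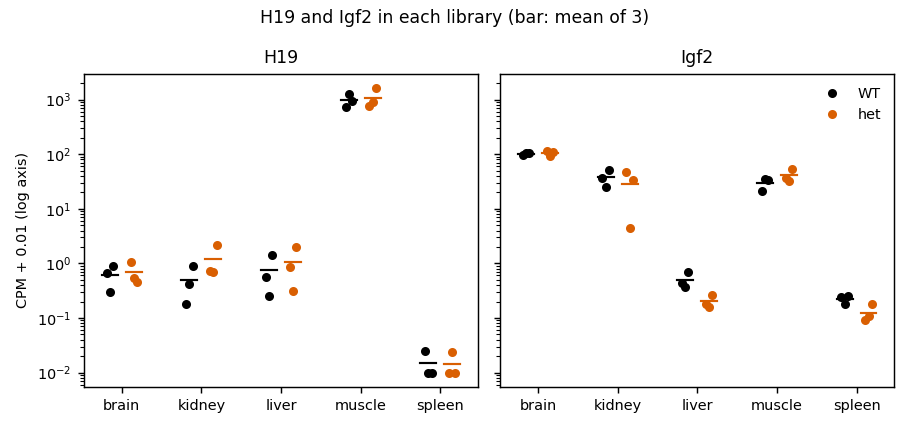
H19 (left) and Igf2 (right) in each library, in CPM plus 0.01 on a log axis, by tissue, with WT in black, heterozygous in orange and a bar at each mean of 3. The genotypes overlap in muscle for both genes, and the heterozygous Igf2 points lie below the WT points in liver and spleen.

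The Dlk1-Meg3 domain gave the largest differences, in spleen, at low levels. Rian was at 0.131, 0.264 and 0.121 CPM in WT and 2.19, 1.18 and 0.877 CPM in heterozygous libraries. Meg3 was at 0.0583, 0.036 and 0.131 CPM in WT and 0.54, 0.661 and 0.449 CPM in heterozygous libraries. Every heterozygous spleen library lay above every WT library for both RNAs. The log2 fold changes were 3.03 (SE 0.51) for Rian (edgeR adjusted p 0.118) and 2.81 (SE 0.51) for Meg3 (adjusted p 0.149), and neither was called. DESeq2 called both, with adjusted p of 3.87e-06 for Rian and 5.45e-04 for Meg3, and a fit of all 30 libraries called Rian, with an edgeR adjusted p of 0.0103. The WT values rest on 3 to 13 counts of Meg3 and 9 to 22 of Rian. Dlk1, the coding gene of the domain, was at 0.0583, 0.0481 and 0.131 CPM in WT and 0.02, 0.0689 and 0.0627 CPM in heterozygous libraries and was not tested.

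Other markers moved with genotype in the same spleen libraries. Kidney markers summed to 11.1, 22.6 and 22.4 CPM in heterozygous and 0.379, 0.0841 and 0.211 CPM in WT libraries, with Umod and Kap at 0 in all WT libraries, and each of the 4 markers was without overlap. Liver markers summed to 40.1, 31.3 and 31.2 CPM in WT and 0.07, 0.289 and 0.219 CPM in heterozygous libraries, with Ahsg at 0 in the latter. Pancreas markers reached 1295 CPM in heterozygous replicate 2 and 19.8 to 179.5 CPM in the other 5. The part of these transcripts in the Rian, Meg3 and Igf2 values was not tested. Leaving out heterozygous replicate 1, the highest for Rian, gave a log2 fold change of 2.57.

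In muscle all 4 genes of the domain had higher means in heterozygous libraries. Rian was at 33, 45.5 and 36.4 CPM in WT and 53.1, 107 and 43.8 CPM in heterozygous libraries. Mirg was at 1.39, 1.53 and 0.888 CPM in WT and 1.83, 4.05 and 1.78 CPM in heterozygous libraries. Heterozygous replicate 2 was the highest library for both. Dlk1 was at 1.05, 2.21 and 1.11 CPM in WT and 1.82, 4.43 and 2.5 CPM in heterozygous libraries. Meg3 was at 16.9, 23 and 19 CPM in WT and 21.9, 39 and 20.7 CPM in heterozygous libraries. The same library was the highest for these too, and the genotypes overlapped for each except Mirg. The log2 fold changes were 1.0 (SE 0.37) for Mirg, 1.0 (SE 0.40) for Dlk1, 0.83 (SE 0.31) for Rian and 0.47 (SE 0.25) for Meg3. Unadjusted p was 0.0259 for Mirg, 0.0291 for Rian, 0.0372 for Dlk1 and 0.0922 for Meg3, and edgeR adjusted p was 0.654 or above. Without heterozygous replicate 2 the log2 fold changes were 0.33 for Rian, 0.50 for Mirg and 0.57 for Dlk1. Connective-tissue genes had the same highest library in each genotype. Their full order of libraries was shared by Mirg in both genotypes, by Rian and Meg3 in heterozygous libraries, and by Dlk1 in neither. Dcn, Lum, Col1a1, Col1a2 and Slc6a13, a list made for meninges, summed to 298, 419.7 and 267 CPM in WT and 471, 637 and 311 CPM in heterozygous muscle, overlapping, with replicate 2 the highest of each genotype and none at 0. Replicate 2 was also the highest of each genotype for all 4 imprinted genes, and the part of connective tissue in their values was not tested.

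Brain, where the domain is most abundant, showed no such pattern. Meg3 was at 1564, 1588 and 950.4 CPM in WT and 1251, 1524 and 1121 CPM in heterozygous libraries. Dlk1 was at 42.4, 38.6 and 35.2 CPM in WT and 31, 36.9 and 49.1 CPM in heterozygous libraries. Both overlapped, and the log2 fold changes of the 4 genes lay between -0.07 and 0.01. The log2 ratio of Meg3 to Dlk1 counts differed by -0.57 in muscle (exact permutation p = 0.2, 3 against 3) and -0.03 in brain (exact p = 0.9). In liver, WT replicate 3, the library with raised brain markers, held 4.55 CPM of Meg3 and 2.21 CPM of Rian, above every other liver library. Kidney values of Meg3, Rian and Dlk1 overlapped between genotypes.

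**Figure D4:**
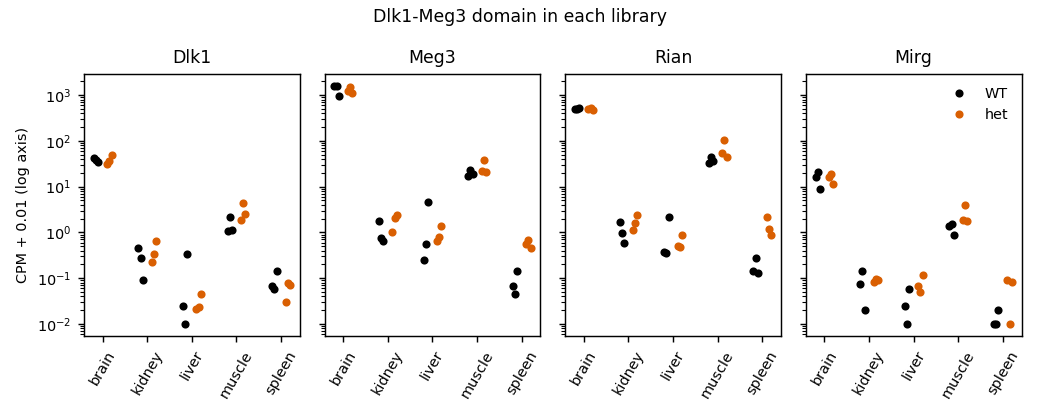
Dlk1, Meg3, Rian and Mirg in each library, in CPM plus 0.01 on a log axis, by tissue, with WT in black and heterozygous in orange. The genotypes overlap in brain for all 4, and the heterozygous points of Meg3 and Rian lie above the WT points in spleen.

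At the Kcnq1ot1 domain, muscle libraries separated for the 2 opposed partners in opposite directions. Cdkn1c was at 19.2, 21.3 and 19.3 CPM in WT and 26.4, 23.5 and 26.6 CPM in heterozygous libraries, without overlap, with a log2 fold change of 0.35 (SE 0.10), unadjusted p 0.00705 and edgeR adjusted p 0.469. Kcnq1ot1 was at 1.18, 1.36 and 1.52 CPM in WT and 1.09, 1.02 and 0.898 CPM in heterozygous libraries, without overlap and with -0.43 (SE 0.21). It was not among the 10 muscle genes at an unadjusted p under 0.05. The log2 ratio of Kcnq1ot1 to Cdkn1c counts was -4.02, -3.97 and -3.67 in WT and -4.59, -4.52 and -4.89 in heterozygous muscle. The difference of -0.78 had an exact permutation p of 0.1 (3 against 3, the smallest such a design can give) and an adjusted p of 0.475.

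In the other 4 tissues this ratio overlapped between genotypes. In kidney Kcnq1ot1 was at 2.58, 1.89 and 1.98 CPM in WT and 3.1, 3.6 and 2.37 CPM in heterozygous libraries, with a log2 fold change of 0.49 (SE 0.21) and unadjusted p 0.0488. Cdkn1c there was at 16.4, 18.7 and 18 CPM in WT and 16.8, 21.1 and 22.9 CPM in heterozygous libraries. The kidney ratio differed by 0.30 (exact p = 0.3, permutation). In brain Kcnq1ot1 was at 7.18, 6.75 and 5.71 CPM in WT and 5.89, 6.54 and 6.7 CPM in heterozygous libraries. Cdkn1c was at 5.67, 6.48 and 5.31 CPM in WT and 6.07, 4.78 and 3.81 CPM in heterozygous libraries, the 2 RNAs being near each other in counts. Liver held Kcnq1ot1 at 0.945, 0.765 and 2.8 CPM in WT and 2.05, 1.78 and 1.48 CPM in heterozygous libraries, with WT replicate 3 the highest. Cdkn1c in liver was at 2.48, 3.1 and 2.54 CPM in WT and 3.65, 3.44 and 3.08 CPM in heterozygous libraries. Spleen was the tissue with more Kcnq1ot1 counts than Cdkn1c counts in all 6 libraries. Kcnq1ot1 was at 3.98, 6.95 and 8.86 CPM in WT and 8.02, 4.88 and 10.5 CPM in heterozygous libraries. Cdkn1c was at 0.627, 0.324 and 0.493 CPM in WT and 0.35, 0.427 and 0.366 CPM in heterozygous libraries. The ratio differed by 0.24 in brain, 0.14 in liver and 0.54 in spleen, with overlapping genotypes and exact permutation p of 0.5, 0.9 and 0.5.

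Slc22a18 was the third spleen gene at an unadjusted p under 0.05. It was at 0.335, 0.276 and 0.211 CPM in WT and 0.47, 0.868 and 0.575 CPM in heterozygous libraries, without overlap, with a log2 fold change of 1.21 (SE 0.37), p 0.0146 and edgeR adjusted p 0.885. In kidney, its main tissue, it was at 351, 438 and 454 CPM in WT and 401, 375 and 466 CPM in heterozygous libraries, a log2 fold change of 0.00 (SE 0.13). The heterozygous spleen libraries that hold kidney markers are the ones with the higher Slc22a18, and the part of kidney RNA in it was not tested. In muscle it was at 0.422, 1.04 and 0.537 CPM in WT and 0.296, 0.265 and 0.481 CPM in heterozygous libraries, with WT replicate 2 the highest. Kidney markers in muscle summed to 9.42, 67.7 and 9.29 CPM in WT and 0, 0.0115 and 5.33 CPM in heterozygous libraries, and their part in it was not tested. Kcnq1 and Phlda2 overlapped between genotypes in every tissue where they were tested.

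In the Peg3 domain, Zim1 in muscle was at 5.37, 5.62 and 4.6 CPM in WT and 9.57, 6.45 and 6.99 CPM in heterozygous libraries, without overlap, with a log2 fold change of 0.56 (SE 0.18), p 0.0126 and edgeR adjusted p 0.539. Peg3 in muscle was at 29.7, 43.2 and 26.6 CPM in WT and 49.5, 36.4 and 48.6 CPM in heterozygous libraries and overlapped. Their ratio in muscle differed by 0.09 (exact permutation p = 0.6). In brain Zim1 was at 8.69, 8.98 and 7.29 CPM in WT and 4.18, 6.65 and 7.38 CPM in heterozygous libraries. Peg3 in brain was at 358, 325 and 358 CPM in WT and 289.8, 344 and 414 CPM in heterozygous libraries. Each overlapped on its own. The log2 ratio of Zim1 to Peg3 there was -5.36, -5.18 and -5.62 in WT and -6.11, -5.69 and -5.81 in heterozygous libraries, without overlap, a difference of -0.49 with an exact permutation p of 0.1 (adjusted 0.475). Taken as 3 pairs by replicate number, the exact permutation p was 0.25, the smallest that 3 pairs can give. In kidney Zim1 was at 3.91, 4.17 and 2.62 CPM in WT and 3.52, 4.77 and 1.84 CPM in heterozygous libraries. Peg3 in kidney was at 34.3, 30.1 and 24.2 CPM in WT and 25.5, 35.6 and 18.3 CPM in heterozygous libraries. Heterozygous replicate 3 was the lowest for both, and the ratio differed by 0.04 (exact permutation p = 1).

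Usp29 in kidney was at 0.136, 0.225 and 0.183 CPM in WT and 0.0528, 0.132 and 0.0405 CPM in heterozygous libraries, without overlap. Its log2 fold change was -1.29 (SE 0.51), with p 0.034 and edgeR adjusted p 0.714, at 4 to 20 counts per library. In brain, where it is far more abundant, it was at 42, 38.1 and 37.8 CPM in WT and 30.7, 38.2 and 37.1 CPM in heterozygous libraries and overlapped. Peg3 in liver was at 5.61, 7.3 and 8.67 CPM in WT and 20.9, 13.4 and 8.27 CPM in heterozygous libraries, with a log2 fold change of 0.98 (SE 0.32) and p 0.0144. Heterozygous replicate 1 was the highest of these, heterozygous replicate 3 lay inside the WT range, and without replicate 1 the value was 0.60.

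The Snrpn domain differed by less than the spread between replicates in its main tissues. In brain Snrpn was at 501, 528 and 523 CPM in WT and 542, 530.4 and 484 CPM in heterozygous libraries, and the log2 fold changes of Snrpn, Ndn, Magel2 and Ube3a were 0.00 (SE 0.06), 0.00 (SE 0.11), -0.22 (SE 0.19) and -0.04 (SE 0.13). In muscle Snrpn was at 36.7, 33.1 and 35.3 CPM in WT and 32.6, 39.3 and 34.7 CPM in heterozygous libraries. Ndn in liver was at 1, 1.2 and 1.62 CPM in WT and 0.824, 0.647 and 0.997 CPM in heterozygous libraries, without overlap, with a log2 fold change of -0.63 (SE 0.30) and p 0.0656. WT replicate 3, the highest of these, was the liver library with raised brain markers, and their part in its Ndn value was not tested.

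Of the Peg10 locus, Sgce had higher means in heterozygous libraries of all 5 tissues. In muscle it was at 6.08, 5.86 and 4.5 CPM in WT and 7.32, 8.05 and 6.52 CPM in heterozygous libraries. In liver it was at 6.42, 6.33 and 5.65 CPM in WT and 9.41, 7.75 and 7.42 CPM in heterozygous libraries, without overlap in either tissue. The log2 fold changes were 0.41 (SE 0.15) in muscle (p 0.0292) and 0.42 (SE 0.16) in liver (p 0.0265), and the edgeR adjusted p was 0.666 or above. In brain, kidney and spleen they were 0.11 (SE 0.11), 0.06 (SE 0.14) and 0.34 (SE 0.33). A fit of 1 shared genotype effect over the 5 tissues put Sgce at 0.28 (SE 0.08), p 0.00145, the smallest of the 35, and edgeR adjusted p 0.216. Peg10, which starts beside Sgce on the other strand, overlapped between genotypes in all 5 tissues, as did Asb4. The markers of fibro-adipogenic and satellite cells summed to 21.8, 28 and 16.4 CPM in WT and 41.6, 41.5 and 39.8 CPM in heterozygous liver. Of the 5, Ly6a made up most of that sum and was alone in being higher without overlap, while Myf5 was at 0 in every liver library and Pdgfra was lower without overlap. Their part in the liver values of Sgce, Peg3 and Airn was not tested.

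Airn, the antisense RNA, and Igf2r were tested in all 5 tissues. In liver Airn was at 0.31, 0.383 and 0.852 CPM in WT and 1.33, 0.795 and 0.979 CPM in heterozygous libraries, with a log2 fold change of 1.01 (SE 0.43) and p 0.0457. Igf2r in liver was at 31.9, 38 and 36.4 CPM in WT and 36.3, 31.7 and 34.9 CPM in heterozygous libraries. Both overlapped. The log2 ratio of Airn to Igf2r was -6.68, -6.63 and -5.42 in WT and -4.77, -5.32 and -5.16 in heterozygous liver, without overlap, and the difference of 1.16 had an exact permutation p of 0.1 (adjusted 0.475). Without WT replicate 3, the WT library with the most Airn, the log2 fold change of Airn was 1.59. That library also had raised brain markers, and their part in its Airn value was not tested. In muscle the ratio went the other way, by -0.31 without overlap (exact permutation p = 0.1). Airn there was at 5.65, 5.17 and 5.07 CPM in WT and 5.36, 4.31 and 4.68 CPM in heterozygous libraries. Igf2r in muscle was at 57.5, 58.3 and 66.6 CPM in WT and 72.4, 63.8 and 66.8 CPM in heterozygous libraries.

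The other 3 tissues overlapped for this ratio. In brain Airn was at 0.842, 0.729 and 0.949 CPM in WT and 0.687, 0.588 and 0.96 CPM in heterozygous libraries. Igf2r in brain was at 40.7, 36.8 and 38.8 CPM in WT and 39, 37.3 and 42.3 CPM in heterozygous libraries. Kidney held more of both. Airn there was at 4.34, 3.12 and 4.73 CPM in WT and 4.61, 3.03 and 5.19 CPM in heterozygous libraries. Igf2r was at 86.2, 78.6 and 92.3 CPM in WT and 95.5, 81.8 and 93.5 CPM in heterozygous libraries, with replicate 2 the lowest of each genotype. Spleen held Airn at 0.904, 1.15 and 1.98 CPM in WT and 2.05, 1.67 and 2.85 CPM in heterozygous libraries. Igf2r in spleen was at 44, 58.4 and 57.7 CPM in WT and 71, 50.4 and 72 CPM in heterozygous libraries. The ratio differed by -0.22 in brain, -0.02 in kidney and 0.48 in spleen, with exact permutation p of 0.3, 1 and 0.3.

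Peg13, the intronic non-coding RNA of Trappc9, was at 30.3, 34.2 and 31.2 CPM in WT and 26, 30.0 and 23.3 CPM in heterozygous libraries of kidney, without overlap. It was at 8.15, 6.56 and 8.88 CPM in WT and 6.73, 5.9 and 5.02 CPM in heterozygous libraries of liver, where heterozygous replicate 1 lay inside the WT range. WT replicate 3, the highest in liver, was the library with raised brain markers, and their part in its Peg13 value was not tested. The log2 fold changes were -0.27 (SE 0.11) in kidney (p 0.0344, edgeR adjusted p 0.716) and -0.42 (SE 0.18) in liver (p 0.0481, adjusted p 1). In brain, its main tissue, it was at 316, 295 and 333 CPM in WT and 305, 313 and 345 CPM in heterozygous libraries. Trappc9 overlapped between genotypes in all 5 tissues, and so did Zrsr1 and Commd1. Kcnk9 was tested in brain alone, at 6.87, 5.61 and 13.9 CPM in WT and 5.72, 6.38 and 15.5 CPM in heterozygous libraries.

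Grb10 gave the smallest p of the imprinted genes in muscle. It was at 44.5, 54.9 and 54.1 CPM in WT and 82.2, 72.3 and 92 CPM in heterozygous libraries, and the lowest heterozygous library stood above the highest WT library by more than the range of the WT libraries. Its log2 fold change was 0.68 (SE 0.12), with unadjusted p 0.000593 and an edgeR adjusted p of 0.233, so it was not called. DESeq2 called it (adjusted p 0.00242), as did edgeR with a looser filter of 1 count (adjusted p 0.0423). In brain Grb10 was at 63.3, 58.7 and 64.4 CPM in WT and 47.7, 55.3 and 69.1 CPM in heterozygous libraries, a log2 fold change of -0.11 (SE 0.12). In kidney, liver and spleen the log2 fold changes were 0.13 (SE 0.09), 0.37 (SE 0.20) and -0.06 (SE 0.33). The genotypes overlapped in these 4 tissues.

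Nnat had the largest fold change in muscle. It was at 2.75, 2.21 and 0.395 CPM in WT and 10.3, 6.84 and 5.08 CPM in heterozygous libraries, with a log2 fold change of 2.04 (SE 0.58), p 0.008 and edgeR adjusted p 0.472. Plagl1, a zinc-finger regulator of growth, was at 1.18, 1.15 and 1.15 CPM in WT and 1.98, 1.91 and 1.59 CPM in heterozygous libraries, with 0.65 (SE 0.18), p 0.00713 and adjusted p 0.469 by edgeR. Mest, a hydrolase-like gene raised in expanding fat, was at 1.52, 2.22 and 2.44 CPM in WT and 2.93, 3.1 and 2.89 CPM in heterozygous libraries, with 0.53 (SE 0.20) and p 0.0322, and 0.35 without WT replicate 1. The genotypes did not overlap for any of these 3.

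Fat markers separated the same muscle libraries. The 5 markers Adipoq, Plin1, Lep, Retn and Cidec summed to 22.1, 19.5 and 7.86 CPM in WT and 99.5, 38.4 and 66.2 CPM in heterozygous muscle, 4 of the 5 without overlap and none at 0. WT replicate 3, the lowest in fat markers, was also the lowest in Nnat. Of the heterozygous muscle libraries, replicate 2 was the lowest in fat markers and in Grb10, Cdkn1c and Zim1. Replicate 3 was the lowest in Nnat, Plagl1, Mest, Mirg, Rian and Sgce, and replicate 1 in Dlk1. In kidney the fat markers summed to 149, 94.7 and 5.33 CPM in WT and 67.2, 39.1 and 95.5 CPM in heterozygous libraries. Nnat there was at 5.61, 4.3 and 0.906 CPM in WT and 3.41, 2.3 and 1.7 CPM in heterozygous libraries. WT replicate 3 was again the lowest in both. Heterozygous replicate 3 was the highest of its genotype in fat markers and the lowest in Nnat. The markers of fibro-adipogenic and satellite cells overlapped between genotypes in muscle, at 107, 121 and 74.8 CPM in WT and 118, 125 and 90.3 CPM in heterozygous libraries, with none at 0. The part of fat in the muscle values of the imprinted genes was not tested.

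**Figure D5:**
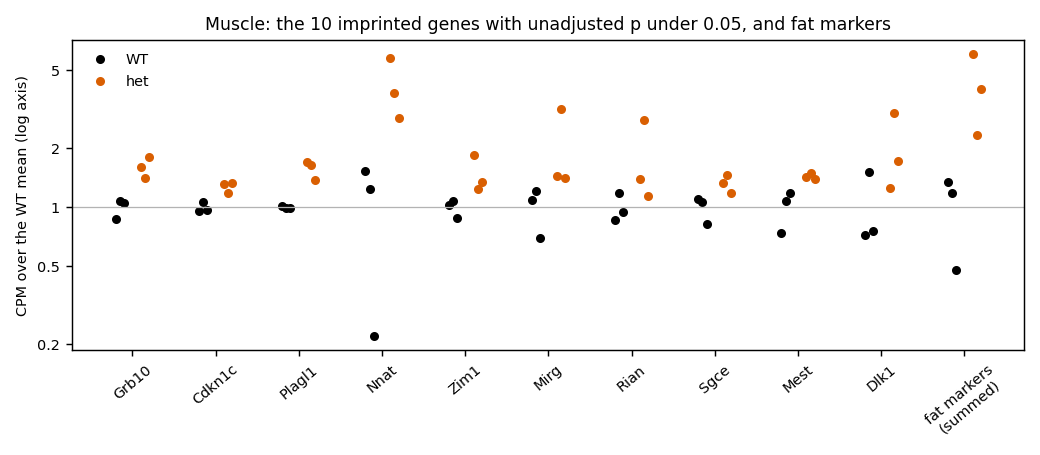
Muscle level of the 10 imprinted genes with an unadjusted p under 0.05, ordered by p, and of the summed fat markers, as CPM over the WT mean on a log axis, with 1 point per library. Heterozygous points (orange) lie above WT points (black) for 8 of the 10 genes and for the fat markers, and Rian and Dlk1 overlap.

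Nap1l5 was the 1 brain gene at an unadjusted p under 0.05. It was at 446, 453 and 453 CPM in WT and 381, 416 and 418 CPM in heterozygous libraries, without overlap, with a log2 fold change of -0.16 (SE 0.06), p 0.0281 and edgeR adjusted p 1. Its level in brain was the highest of any of the single genes per length. Nnat in brain was at 249.9, 285 and 268 CPM in WT and 228, 236 and 261 CPM in heterozygous libraries. Impact and Gnas overlapped between genotypes in all 5 tissues, with log2 fold changes in brain of -0.08 (SE 0.06) and -0.03 (SE 0.07). Plagl1 in spleen was at 0.292, 0.312 and 0.402 CPM in WT and 2.7, 0.22 and 0.679 CPM in heterozygous libraries, in which 1 heterozygous library, replicate 1, stood apart.

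Whether the genotype effect differed between tissues was tested directly in a fit of all 30 libraries. None of the 35 was called (0.758% of all genes were), and 6 had an unadjusted p under 0.05, against 6.66% of all genes. These were Rian (p 0.00233, edgeR adjusted p 0.164), Slc22a18 (p 0.00244, adjusted p 0.169), Usp29 (p 0.00583), Meg3 (p 0.0312), Grb10 (p 0.038) and Cdkn1c (p 0.0421). With limma-voom Usp29 was called, with an adjusted p of 0.0217. An effect shared by the 5 tissues was called for 0 of the 35 (0.194% of all genes), and 6 had an unadjusted p under 0.05, against 5.91%. Those 6, Sgce, Mirg, Rian, Grb10, Plagl1 and Peg3, all had positive estimates, from 0.22 for Grb10 to 0.68 for Mirg, and edgeR adjusted p of 0.216 or above. Libraries of the same mice were taken as independent here, so these p may be too small. With limma-voom and the replicate number taken as the mouse, as a random effect, 0 were called (67 of 24262 genes). In that fit 5 had an unadjusted p under 0.05 (1344 of all genes).

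Genes around and upstream of the imprinted loci were counted for comparison. Of 26 regulators of imprinting, such as DNA methyltransferases, Tet enzymes and zinc-finger readers, Ctcf was called in brain and no other gene in any tissue. At an unadjusted p under 0.05 they numbered 3 of 22 in muscle (6.45% of all genes), 2 of 25 in kidney (6.44%), 1 of 22 in brain (2.96%), 1 of 22 in liver (4.56%) and 1 of 23 in spleen (3.52%). Ctcf, the gene altered in these mice, is 1 of each of these counts. Of 48 neighbours of the domains, 0 were called, and 5 of 37 in muscle (6.45% of all genes), 3 of 41 in brain (2.96%), 3 of 35 in spleen (3.52%), 2 of 39 in kidney (6.44%) and 0 of 31 in liver (4.56%) had an unadjusted p under 0.05. Ppp1r9a, a neuronal actin-binding gene beside Peg10, was at 17.7, 14.9 and 14.2 CPM in WT and 8.76, 9.69 and 6.87 CPM in heterozygous kidney, a log2 fold change of -0.88 (SE 0.15) with an edgeR adjusted p of 0.189. In muscle its value was -0.83 (SE 0.24), with 1.47, 2.06 and 2.04 CPM in WT and 1.3, 0.863 and 0.962 CPM in heterozygous libraries, also without overlap.

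Of 19 genes of the IGF axis, a list that includes Igf2, 0 were called in any tissue. The count at an unadjusted p under 0.05 was 5 of 16 in spleen (3.52% of all genes), 2 of 16 in brain (2.96%), 2 of 16 in liver (4.56%), 2 of 18 in kidney (6.44%) and 1 of 16 in muscle (6.45%). The 5 in spleen were the IGF receptor gene Igf1r and the binding protein genes Igfbp3 and Igfbp5, with higher means in heterozygous libraries, and Igfbp1 and Igfbp2, with lower ones. Igfbp1 was at 0.248, 0.168 and 0.121 CPM in WT and 0.01, 0.0138 and 0.0104 CPM in heterozygous spleen, the latter from at most 1 count per library. Igfbp5 was at 0.277, 0.168 and 0.282 CPM in WT and 0.63, 1.24 and 0.606 CPM in heterozygous spleen, a log2 fold change of 1.76 (SE 0.43) with an edgeR adjusted p of 0.496. These are the spleen libraries in which liver markers summed to 40.1, 31.3 and 31.2 CPM in WT and 0.07, 0.289 and 0.219 CPM in heterozygous libraries and kidney markers went the other way, and their part was not tested. The muscle gene was Igf1, the growth factor itself, at 13.6, 11.9 and 9.81 CPM in WT and 16, 27.5 and 21.3 CPM in heterozygous libraries, without overlap, with a log2 fold change of 0.88 (SE 0.21) and edgeR adjusted p 0.368. In liver Igfbp3, an IGF binding protein, was at 21.5, 22.2 and 17.4 CPM in WT and 27, 29.1 and 30.7 CPM in heterozygous libraries, with 0.51 (SE 0.13) and adjusted p 0.651.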

How the data were processed

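Libraries from 5 tissues, 30 in all, were sequenced. Per the labels' protocols, total RNA was taken with TRIzol and cleared of DNA, had an integrity number over 7, and was made into standard Illumina libraries. Each table holds whole-number counts of fragments per gene. Per the file headers, the authors made these counts with the tool featureCounts 1.5.0-p3 from IRFinder alignments, using Ensembl 86 exons on GRCm38. Strand was ignored, and fragments mapping to several places or genes were left out. STAR is named in the submitters' processing notes, and its version is not given in the sources used here.

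The 35 genes, the other lists and the naming rule were chosen with earlier results of these data known. Under that rule every one of the 35 is named, and values in each library are given for those without overlap at an unadjusted p under 0.05 and for opposed partners. Other values shown in full were chosen after they were seen.

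Tests used edgeR 4.0.16 under R 4.3.3 (filterByExpr, TMM, quasi-likelihood F-test, Benjamini-Hochberg adjustment over all genes tested), after a check on simulated data. The alternatives used DESeq2 1.42.0 and limma 3.58.1. Fits over several tissues treated libraries as independent. FPKM divides CPM, TMM-scaled over 30 libraries, by exon length. Count ratios needed 10 counts of both genes in each library. Replicates of a group differed beyond sampling noise in all 30 pairs. Labels number replicates 1 to 3 in both genotypes. Deviations from group means of the same number correlated across genes at 0.207, 0.383 and 0.537 in brain and 0.209, 0.190 and 0.212 in kidney, which was taken as pairing. Correlations between different numbers were negative in kidney. In brain, however, heterozygous replicate 1 correlated with WT replicate 2 at 0.216, above its own number, so pairing of replicate 1 is not shown there. A fit with the number as a block called 0 of the 35 in brain (22 of 19166 genes) and in kidney (21 of 18937). In the other tissues at least 1 same-number correlation was under 0.1.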

Additional observations from a re-analysis of the deposited data

Results flagged for a closer look

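Nap1l5, a paternally expressed gene, separated the genotypes in opposite directions in 2 tissues. Its log2 fold change was -0.16 in brain, where every heterozygous library lay below every WT library, and 0.69 in muscle, where every heterozygous library lay above. In muscle it was at 0.326, 0.32 and 0.142 CPM in WT and 0.503, 0.345 and 0.428 CPM in heterozygous libraries, and was not among the 10 imprinted genes at an unadjusted p under 0.05. Heterozygous libraries lay below WT without overlap for 4.1% of all genes in brain, and above WT for 5.91% in muscle. The test of a difference between the 5 tissues gave p 0.246 and an edgeR adjusted p of 1, and brain against muscle alone was not tested.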

How the results depend on the processing

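The count of imprinted genes called between genotypes was 0 in every tissue and stayed 0 in brain, kidney and liver under all alternatives and in each fit that left out 1 library in any tissue. In muscle it became 1 with DESeq2 (182 of all 26245 genes) and 1 with a filter of 1 count (66 of 26245). It became 2 with the replicate block (118 of 16064), Grb10 with an edgeR adjusted p of 0.0489 and Nnat with 0.0212. The same-number correlations in muscle were 0.0829, 0.183 and 0.271, in liver 0.0512, 0.118 and 0.277 and in spleen -0.472, -0.227 and 0.475, so the numbers were not taken as pairs there, and the block changed no other call. In spleen the count became 2 with DESeq2 (192 of 29442 genes) and 1 with all 30 libraries in 1 fit (250 of 24262). The test of a difference between tissues called 1 with limma-voom (265 of 24262 genes) in place of 0 (184). Among WT tissues, the count higher in liver, 2, became 5 with no fold threshold, 1 with total counts and 1 to 3 without 1 replicate number. Over all 22933 genes it was 4442, 6545 with no fold threshold and 2931 with total counts. The count higher in spleen, 0, became 1 with no fold threshold, 1 with total counts and 0 to 1 without 1 replicate number. Over all 22933 genes it was 6657, 8725 with no fold threshold and 9168 with total counts. With total counts the count lower in muscle went from 2 to 8 and in liver from 14 to 22. Over all 22933 genes these went from 5949 to 10348 and from 4688 to 8670. The count lower in liver was 9 without replicate 1 (3955 of 23375 genes). That in kidney, 5 (2686 of 22933), was 8 without replicate 1 (2430 of 23375) and 10 with DESeq2 (3884 of 34679). Leaving out 1 library turned the sign of 7 of the 19 ratio differences. Their ranges were -0.35 to 0.47 for H19 over Igf2 in brain, -0.21 to 0.25 for Meg3 over Dlk1 in brain, -0.32 to 0.76 in liver and -0.0024 to 0.93 in spleen for Kcnq1ot1 over Cdkn1c, -0.042 to 0.19 in kidney and -0.059 to 0.21 in muscle for Zim1 over Peg3, and -0.15 to 0.15 for Airn over Igf2r in kidney. The causes were not tested. Counts at an unadjusted p under 0.05 moved more. In muscle (10) the count was 7 without heterozygous replicate 2 (5.78% of all genes) and without WT replicate 3 (8.65%). It was also 7 with all 30 libraries fitted together (7.70%), and 15 with the replicate block (9.36%). In liver (5) it was 2 without heterozygous replicate 1 (2.98%) and 8 without WT replicate 3 (10.6%). It was 3 without WT replicate 1 (4.31%) or with total counts (4.21%). In brain (1) it was 5 without heterozygous replicate 3 (3.88%) and 4 with the replicate block (6.69%). It was 2 without heterozygous replicate 1 (2.06%) or WT replicate 3 (3.43%) and with DESeq2 (1.55%) or limma-voom (3.06%). It was 0 without heterozygous replicate 2 (1.93%), without WT replicate 1 (1.86%) and with all 30 fitted together (0.989%). In kidney (3) it was 0 without WT replicate 2 (5.94%) and 5 without WT replicate 1 (4.61%). It was 1 without heterozygous replicate 3 (9.31%), with a 10-count filter (6.68%) and in the fit of all 30 libraries (3.59%), and between 2 and 4 otherwise. In spleen (3) it was 5 without heterozygous replicate 2 (5.43%), without heterozygous replicate 3 (3.54%) and with a filter of 1 count (3.37%). It was 6 in the fit of all 30 libraries (6.90%) and 1 with a 10-count filter (2.64%). For a difference between tissues (6) it was 4 to 10 without 1 tissue, and for a shared effect (6) it was 3 to 6.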
